A study of Mus musculus with 13 samples.

Results

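The period between 4 and 6 h after γ-irradiation was examined in 5 of 13 libraries of oocyte RNA from postnatal day 5 CD-1 mouse ovaries. The 2 libraries of 6 h, of 0.5 Gy and of 0.2 Gy, were set against the 3 libraries of 4 h, of which 2 were of 0.5 Gy and 1 was of 0.2 Gy. All 13 libraries come from ovaries of females that were cultured overnight, those of the later time points were irradiated with a Caesium source while those of 0 h were taken before irradiation, and 4 ovaries were pooled for each time point. Oocytes were separated from follicular cells by trypsin and centrifugation. In the labels, the 0.5 Gy library of 4 h replicate 1 is of the first generation, replicate 2 and the 6 h library are of the second, and the 0.2 Gy libraries are of the third, so that dose and generation cannot be told apart. The remaining 8 libraries, of 0, 1 and 2.5 h, serve here only as a reference for the level before and early after irradiation. Among the 5 libraries compared, only 0.5 Gy at 4 h has 2 replicates, each 6 h condition is a single pool, and p-values therefore rest on a small spread estimate.

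Interferon-stimulated genes are the common targets of the antiviral response. Type I and III interferons bind receptors on the cell surface, and a complex that contains STAT2 and IRF9 then binds the interferon-stimulated response element, a pair of GAAA repeats in the promoter. Type II interferon acts through a palindrome called GAS. Cells with DNA damage can also raise this response when DNA reaches the cytosol. In oocytes of this age, DNA breaks activate TAp63α, which turns on p53 family targets such as those of cell cycle arrest and apoptosis.

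The 5 libraries held 26203391, 28169108 and 25757398 estimated reads for 0.5 Gy at 4 h (replicates 1 and 2) and 6 h, and 27067283 and 25263647 for 0.2 Gy at 4 h and 6 h. Reads were summed per gene, and 24401 genes passed the filter on low counts, 17710 of them protein-coding. Levels are given as CPM, read counts divided by the library total after 1 scaling over all 13 libraries. The 0.5 Gy replicates of 4 h differed more than 2-fold at 20% of these genes, against 17.8% to 18.8% between a 4 h and a 6 h library of the same dose. Oocyte markers were present in all 5 libraries, with a summed level of 12500 to 15430 CPM, and so were granulosa cell markers with 2274 to 3534 CPM and stromal and endothelial markers with 2347 to 3264 CPM. The mitochondrial share of reads was 5.16%, 5.42% and 3.43% at 0.5 Gy (4 h replicates 1 and 2, then 6 h) and 5.74% and 5.54% at 0.2 Gy, and was thus lowest in the 0.5 Gy library of 6 h.

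Between 4 and 6 h, the gene list that stood out was that of the interferon-stimulated genes. The lists were chosen with earlier results of these data known. *Ifit3* was higher at 6 h than at 4 h at both doses, as were *Usp18*, *Irf9*, *Rtp4*, *Igtp* and the interferon-inducible GTPase genes *Tgtp1* and *Iigp1*. On the other side, transcripts of red blood cells such as *Hba-a1* and *Hbb-bt* were lower at 6 h at both doses. The median of the p53 family targets was near that of all genes. In edgeR's quasi-likelihood test with dose as a block, no gene passed an adjusted p under 0.05 with an absolute log2 fold change over 1 (called in 0% of genes, smallest adjusted p = 0.9411 for *Ifit3*). An unadjusted p under 0.05 was reached by 785 genes (3.22%), of which 383 (1.57%) were higher and 402 (1.65%) were lower at 6 h. With the Wald test of DESeq2, 26 genes (0.107%) were called, 14 higher (0.0575%) and 12 lower, and on simulated counts of this design DESeq2 made more false calls than its nominal rate and more than edgeR. Of the 14, 7 were protein-coding, namely *Ifit3*, *Tgtp1*, *Usp18*, *Iigp1*, *Ifit1*, *Irf9* and *Rtp4*, and 5 of these are in the list of interferon-stimulated genes. Of the 12, 7 were protein-coding, namely *Hba-a1*, *H2-T22*, *Pla2g4b*, *Hbb-bt*, *Enpp2*, *Ahcy* and *Gm14698*. The other called genes were pseudogenes and non-coding RNAs. *Ahcy* and *Gm14698* fall outside the rule for naming genes and were named after their values were seen.

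The promoters of the interferon genes are shown first, to describe the list. Its members were chosen as known interferon targets, and a high share of the response element comes with that choice. The share is therefore no result about 4 to 6 h. RefSeq windows of GRCm38.p6, from 250 bases before to 50 bases after the start site, were found for 48 of the 60 symbols of the list. The response element, searched on both strands as GAAA, any 2 bases and GAAA again, occurred in the windows of 24 of these 48 symbols (50%), against 3.99% of all 27025 symbols and 1 of 38 p53 family targets. The GAS letters TTCNNNGAA occurred in 11 of the 48 (22.9%), against 9.55% of all symbols. The 250 bases before the start of 6 genes are printed 5′ to 3′ on the strand of the gene, with either motif, on either strand, in capitals. *Ifit3* (chr19:34583279-34583528, plus strand) and *Ifit1* (chr19:34640639-34640888, plus strand) lie in one gene cluster, *Isg15* is at chr4:156200819-156201068 on the minus strand, *Igtp* at chr11:58199306-58199555 on the plus strand, *Tgtp1* at chr11:48992247-48992496 on the minus strand and *Rsad2* at chr12:26456453-26456702 on the minus strand. *Rsad2* is included as a gene with the element whose 6 h levels overlapped those of 4 h.
Ifit3: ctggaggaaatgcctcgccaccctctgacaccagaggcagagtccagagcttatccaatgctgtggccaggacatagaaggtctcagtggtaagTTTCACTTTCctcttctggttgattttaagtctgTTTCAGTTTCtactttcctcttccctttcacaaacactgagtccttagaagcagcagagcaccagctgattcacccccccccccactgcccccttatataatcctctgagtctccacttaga
Ifit1: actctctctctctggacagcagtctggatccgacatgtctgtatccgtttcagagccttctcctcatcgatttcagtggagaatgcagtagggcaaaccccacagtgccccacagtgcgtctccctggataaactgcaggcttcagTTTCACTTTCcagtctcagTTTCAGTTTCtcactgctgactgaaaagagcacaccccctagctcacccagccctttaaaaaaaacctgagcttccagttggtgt
Isg15: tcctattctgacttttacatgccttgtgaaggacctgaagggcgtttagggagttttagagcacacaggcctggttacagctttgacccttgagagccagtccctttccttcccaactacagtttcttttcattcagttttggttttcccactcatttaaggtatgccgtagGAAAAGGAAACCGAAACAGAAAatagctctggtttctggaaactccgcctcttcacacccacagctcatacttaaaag
Igtp: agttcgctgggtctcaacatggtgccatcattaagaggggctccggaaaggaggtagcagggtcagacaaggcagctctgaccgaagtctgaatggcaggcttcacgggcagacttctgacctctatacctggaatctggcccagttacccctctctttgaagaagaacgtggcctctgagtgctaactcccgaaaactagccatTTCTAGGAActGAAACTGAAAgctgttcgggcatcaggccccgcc
Tgtp1: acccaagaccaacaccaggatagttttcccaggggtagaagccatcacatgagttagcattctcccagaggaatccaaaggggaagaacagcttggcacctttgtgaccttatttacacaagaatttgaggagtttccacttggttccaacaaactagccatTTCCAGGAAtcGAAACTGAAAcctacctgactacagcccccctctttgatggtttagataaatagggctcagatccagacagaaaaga
Rsad2: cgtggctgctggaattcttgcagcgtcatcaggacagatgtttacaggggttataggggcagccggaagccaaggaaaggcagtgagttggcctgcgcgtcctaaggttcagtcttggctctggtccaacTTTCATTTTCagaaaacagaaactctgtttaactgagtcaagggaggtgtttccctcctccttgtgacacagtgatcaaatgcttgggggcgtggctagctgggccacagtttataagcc

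In *Ifit3* the element occurred at positions -156 to -147 and -122 to -113 from the start site, and in *Ifit1* at -104 to -95 and -85 to -76. In *Isg15*, 3 overlapping matches covered positions -78 to -57. *Igtp* and *Tgtp1* each held a GAS match just before the response element, in *Igtp* at -45 to -37 and -34 to -25 and in *Tgtp1* at -88 to -80 and -77 to -68. The windows of *Oasl2* and *Irf9* did not contain these letters. Among the protein-coding genes whose levels at 6 h lay clear of those at 4 h, defined below for all genes, the letters occurred in 7 of 96 with a window on the higher side (7.29%) and in 8 of 83 on the lower side (9.64%).

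*Ifit3* (ENSMUSG00000074896, chromosome 19, 34583531 to 34588731) encodes an antiviral protein with tetratricopeptide repeats. At 0.5 Gy it had 0.345 and 0.298 CPM in the 4 h libraries and 19.3 CPM at 6 h, and at 0.2 Gy it had 0.259 CPM at 4 h and 3.84 CPM at 6 h. These were 9, 8 and 514 reads at 0.5 Gy and 7 and 96 reads at 0.2 Gy. With so few reads at 4 h, the filter on low counts may have kept the gene through the 6 h libraries alone. Both 6 h libraries were above every 4 h library and above the 8 earlier ones, in which the level at 0 and 1 h was 0.567 to 2.62 CPM. The 4 h libraries were also below all 6 libraries of 0 and 1 h, so that 4 h was a low point. The fitted log2 fold change was 5.14 with a standard error (SE) of 0.59 (unadjusted p = 3.86e-05 and adjusted p = 0.9411, edgeR), and DESeq2, which shrinks fold changes, gave 2.81 with an adjusted p of 8.03e-15. Of its sequences of 30 bases, 62.5% are found elsewhere too, chiefly in its neighbour *Ifit3b*, and reads could have been split between them. *Ifit3b* itself had 0.422 and 0.633 CPM at 4 h and 4.17 CPM at 6 h of 0.5 Gy, and 0.111 and 1.00 CPM at 0.2 Gy.

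*Usp18* removes ISG15 from proteins and restrains the type I interferon receptor. It had 2.73 and 4.88 CPM at 4 h and 46.2 CPM at 6 h of 0.5 Gy, and 4.52 CPM at 4 h and 11.002 CPM at 6 h of 0.2 Gy. The time points did not overlap, and both 6 h values lay above all 11 earlier libraries. The log2 fold change was 2.69 (SE 0.55, unadjusted p = 0.00157, edgeR), and DESeq2 called it with an adjusted p of 8.90e-05. *Isg15*, the ubiquitin-like modifier itself, had 1.38 and 1.34 CPM at 4 h and 10.8 CPM at 6 h of 0.5 Gy. At 0.2 Gy it had 2.26 CPM at 4 h and 3.601 CPM at 6 h, which was just above the highest value of 0 and 1 h, 3.41 CPM. Its log2 fold change was 2.07 (SE 0.60, unadjusted p = 0.00983, edgeR). *Ifit1*, which binds viral RNA, had 1.42 and 2.76 CPM at 4 h and 25.8 CPM at 6 h of 0.5 Gy. Its 0.2 Gy libraries had 4.33 CPM at 4 h and 7.24 CPM at 6 h. Both 6 h libraries of *Isg15* and of *Ifit1* were above all 11 earlier ones, by a wide margin only at 0.5 Gy.

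*Oasl2*, an oligoadenylate synthetase-like gene, differed from these. It had 14.4 and 11.6 CPM at 4 h and 60.6 CPM at 6 h of 0.5 Gy, but 19.6 CPM at 4 h and 17.7 CPM at 6 h of 0.2 Gy. Its time points overlapped, its fitted log2 fold change of 1.29 (SE 0.50) came from the 0.5 Gy library of 6 h, and without that library it was -0.15. *Mx2*, annotated as a polymorphic pseudogene, was likewise higher at 6 h at 0.5 Gy only. It had 12.2 and 8.09 CPM at 4 h, 42.1 CPM at 6 h of 0.5 Gy, and 6.22 and 5.92 CPM at 0.2 Gy.

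**Figure D1:**
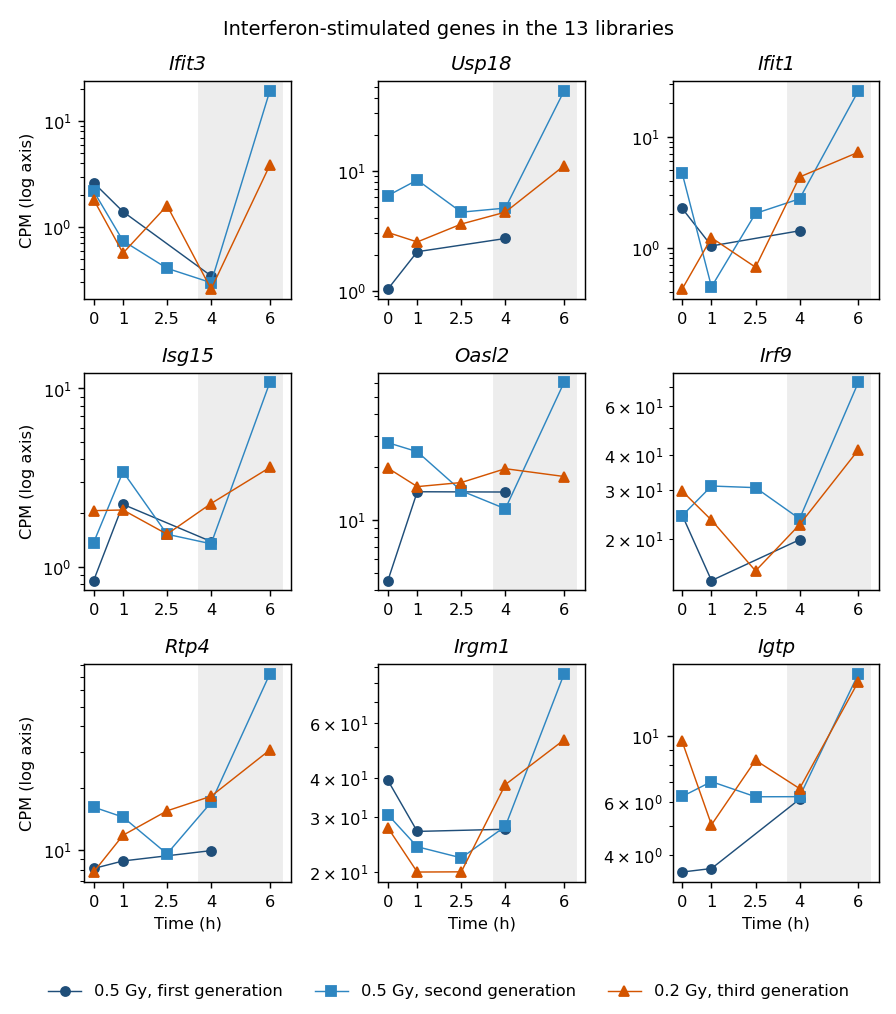
Level of 9 interferon-stimulated genes in CPM on a log axis against the time in h after irradiation, 1 point per library, with lines joining the libraries of a generation and the 4 to 6 h period shaded. The 0.5 Gy library of 6 h is the highest point in every panel and the 0.2 Gy library of 6 h is above its own 4 h library in all panels except that of Oasl2, where it is 17.7 against 19.6 CPM.

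Members of the list that are themselves transcription factors of the interferon response are given next. *Irf9*, the DNA-binding partner of STAT2, had 19.8 and 23.6 CPM at 4 h and 72.7 CPM at 6 h of 0.5 Gy, and 22.5 and 41.6 CPM at 4 h and 6 h of 0.2 Gy. Its log2 fold change was 1.39 (SE 0.27, unadjusted p = 0.00112, edgeR), and its adjusted p from DESeq2 was 0.0158. *Stat2* had 16.9 and 26.9 CPM at 4 h against 33.3 CPM at 6 h of 0.5 Gy, and 25.6 against 33.3 CPM at 0.2 Gy (log2 fold change 0.51, SE 0.29, unadjusted p = 0.116). *Irf7*, which amplifies type I interferon, had 2.38 and 3.69 CPM at 4 h and 17.3 CPM at 6 h of 0.5 Gy but 3.55 and 4.52 CPM at 0.2 Gy (log2 fold change 1.66, SE 0.56, unadjusted p = 0.0195). All 3 of these genes were above every 4 h library at 6 h.

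Genes of GTPases that are known as targets of interferon gamma follow. *Igtp* had 6.14 and 6.26 CPM at 4 h and 16.2 CPM at 6 h of 0.5 Gy, and 6.67 and 15.2 CPM at 0.2 Gy. *Tgtp1* had 1.497 and 1.714 CPM at 4 h and 8.56 CPM at 6 h of 0.5 Gy, and 2.07 and 15.96 CPM at 0.2 Gy, where the 0.2 Gy library was thus the higher one. *Iigp1* had 12.9 and 13.5 CPM at 4 h and 31.9 CPM at 6 h of 0.5 Gy, and 15.7 and 47.4 CPM at 0.2 Gy. In all 3 genes both 6 h libraries were above all 11 earlier ones. The log2 fold changes were 1.30 for *Igtp* (SE 0.32), 2.64 for *Tgtp1* (SE 0.41) and 1.41 for *Iigp1* (SE 0.25). DESeq2 called *Tgtp1* (adjusted p = 4.09e-06) and *Iigp1* (adjusted p = 0.00572), but not *Igtp* (adjusted p = 0.143). *Tgtp1* shares 84.6% of its sequences of 30 bases with other genes, most with *Tgtp2*, so that the levels of this pair are uncertain. *Tgtp2* had 0.0768 and 0.0745 CPM at 4 h and 1.01 CPM at 6 h of 0.5 Gy, and 0.333 and 2.72 CPM at 0.2 Gy. *Irgm1*, a regulator of these GTPases, had 27.4 and 28.0 CPM at 4 h and 85.7 CPM at 6 h of 0.5 Gy, and 38.1 and 52.8 CPM at 0.2 Gy. *Ifi47*, another GTPase gene of this family, had 3.15 and 4.43 CPM at 4 h and 4.995 CPM at 6 h of 0.5 Gy, and 3.52 and 12.3 CPM at 0.2 Gy (log2 fold change 1.02, SE 0.50, unadjusted p = 0.0786). *Gbp2*, a guanylate-binding protein gene, was lower in both 6 h libraries, with 5.41 and 5.9997 CPM at 4 h and 2.74 CPM at 6 h of 0.5 Gy, and 6.15 and 5.04 CPM at 0.2 Gy (log2 fold change -0.72, SE 0.45, unadjusted p = 0.150).

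Over the whole list, 59 of 60 interferon-stimulated genes passed the filter. Their median log2 fold change was 0.64, against 0.0032 for all genes tested, and 52 were positive. In edgeR's test 20 were higher with an unadjusted p under 0.05 and 0 were lower, while across all genes 1.57% were higher and 1.65% were lower at that p. None passed the adjusted threshold. The list was chosen with earlier results of these libraries known, so its comparisons with all genes are no separate evidence. Both 6 h libraries lay above all 3 libraries of 4 h for 28 of the 59, against 9.07% of all genes, and below them for 1, *Gbp2*, against 8.39%. The other members with an unadjusted p under 0.05 included the RNA sensors *Ifih1* (8.52 and 8.01 CPM at 4 h, 20.4 CPM at 6 h of 0.5 Gy, 11.997 and 23.2 CPM at 0.2 Gy) and *Ddx58*, and *Oas2*, *Oasl1*, *Ifi44*, *Rtp4*, *Parp9* and *Gbp7*. Both 6 h libraries were above those of 0 and 1 h for *Oas2*, *Rtp4*, *Parp9* and *Gbp7*, but not for *Ifih1*, *Ddx58*, *Oasl1* and *Ifi44*. *Ifih1* had 22.2 CPM at 0 h of 0.5 Gy replicate 2. *Ifi44* had 4.15 and 3.94 CPM at 0 and 1 h of 0.2 Gy against 2.20 CPM at 6 h. *Rtp4*, which DESeq2 called with an adjusted p of 0.018, had 9.90 and 17.0 CPM at 4 h and 72.3 CPM at 6 h of 0.5 Gy. Its 0.2 Gy libraries had 18.3 and 30.7 CPM. Members with little difference included *Trim25*, *Eif2ak2*, *Adar* and *Psmb8*, with fitted log2 fold changes between -0.03 and 0.03. *Rsad2*, *Cmpk2* and *Ifit2*, which are often among the strongest interferon targets, had log2 fold changes of 0.74, 0.53 and 0.43 with unadjusted p of 0.132, 0.242 and 0.326, and their 6 h libraries overlapped those of 4 h. Without the 0.5 Gy library of 6 h, the median was 0.41 and 4 members were higher with an unadjusted p under 0.05, in a fit where 5.72% of all genes passed that p in either direction.

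The summed level of the 60 genes was 682 and 795 CPM at 4 h and 1468 CPM at 6 h of 0.5 Gy, and 833 and 1065 CPM at 4 h and 6 h of 0.2 Gy. In the 8 earlier libraries it was 713 to 956 CPM, so that only the 6 h libraries were outside this range on the upper side. At 4 h, 1 of the 59 genes had all 3 libraries above the 6 libraries of 0 and 1 h, *Dhx58*, against 1.65% of all genes. At 6 h, 18 of the 59 (30.5%) had both libraries above them, against 3.88% of all genes. At 4 h, 2 members, *Ifit3* and *Parp14*, had all libraries below those of 0 and 1 h (1.09% of all genes). Thus 17 members passed the range of 0 and 1 h at 6 h but not at 4 h, as did 797 of all 24401 genes. Fewer libraries at 6 h than at 4 h make the 6 h count easier to reach.

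The 2 doses were then compared. The median log2 difference between 6 h and 4 h was 0.81 at 0.5 Gy and 0.41 at 0.2 Gy. In edgeR's test of the interaction of dose and time, which has 1 residual degree of freedom, 10 of the 59 genes had an unadjusted p under 0.05 (4.73% of all genes) and none was called (11 of 27324 genes, 0.0403%, over all genes). The log2 difference of 6 h over 4 h was more positive at 0.5 Gy for *Ifit1*, *Isg15*, *Usp18*, *Oasl2*, *Mx2*, *Irf7*, *Ifi44*, *Rtp4* and *Oas1a*, and more positive at 0.2 Gy for *Phf11b*. For *Oas1a* it was 1.62 at 0.5 Gy and -3.24 at 0.2 Gy, and for *Phf11b* it was -2.21 and 1.51. Each negative value rests on 1 library of 6 h with a very low level. *Oas1a* had 0.12 CPM at 6 h of 0.2 Gy. *Phf11b* at 6 h of 0.5 Gy was at 0.078 of its mean at 0 and 1 h of that dose, where it had 1.24 to 3.04 CPM. The opposite directions at the 2 doses are therefore uncertain. For *Oasl2* the interaction was -2.37 on the log2 scale (SE 0.64, unadjusted p = 0.00462 and adjusted p = 0.736). For *Igtp*, *Tgtp1* and *Iigp1* it was -0.20, 0.52 and 0.32 with unadjusted p of 0.805, 0.576 and 0.620. For *Ifit3* it was -2.03 (SE 1.07, unadjusted p = 0.0892).

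**Figure D2:**
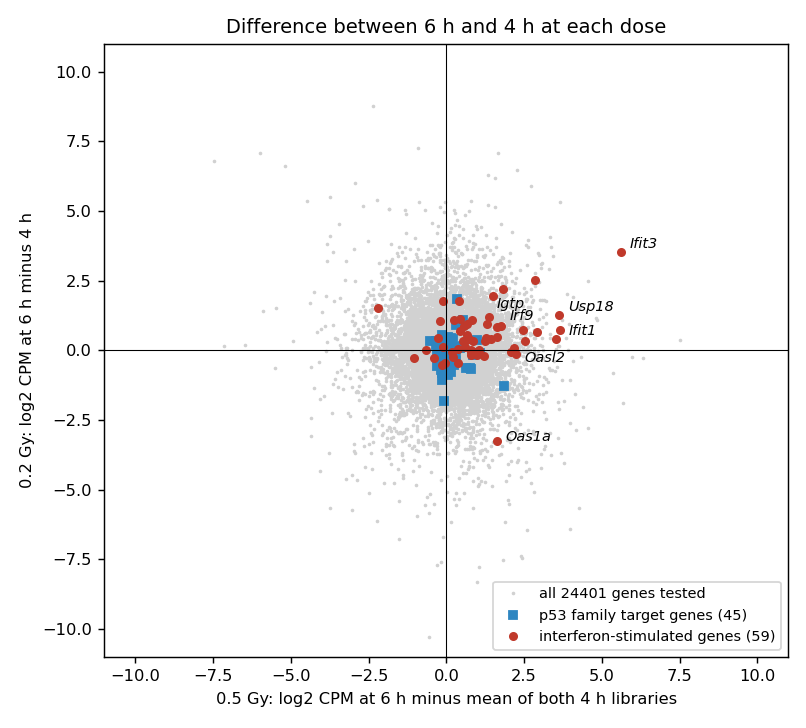
Difference in log2 CPM between 6 h and 4 h at 0.5 Gy (horizontal axis, against the mean of both 4 h libraries) and at 0.2 Gy (vertical axis), 1 point per gene, with interferon-stimulated genes as red circles and p53 family targets as blue squares. Most red points lie to the right, with a median of 0.81 on the horizontal and 0.41 on the vertical axis, Ifit3 stands alone at the upper right, and Oasl2 lies near the horizontal line.

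The genes of interferon production and reception did not share this difference. Of 34 listed, 27 passed the filter, their median log2 fold change was 0.03 and none had an unadjusted p under 0.05. *Tlr3*, a sensor of double-stranded RNA, had 6.37 and 8.79 CPM at 4 h and 21.6 CPM at 6 h of 0.5 Gy but 4.81 and 5.00 CPM at 0.2 Gy (log2 fold change 0.93, SE 0.43). The kinase genes *Jak1*, *Tyk2* and *Jak2* had log2 fold changes of 0.19, -0.11 and -0.63. Of 21 genes of type I, II and III interferons, 6 were at 0 reads in all 5 libraries. *Ifnb1* had 0 and 1 reads at 4 h and 9 reads at 6 h of 0.5 Gy, and 0 and 3 reads at 0.2 Gy. *Ifng* had 8, 1 and 7 reads at 0.5 Gy and 6 and 1 reads at 0.2 Gy. *Ifnl2* had the highest count, with 15 and 36 reads at 4 h and 56 reads at 6 h of 0.5 Gy, and 4 and 14 reads at 0.2 Gy. At 0 and 1 h it had 0, 0, 7 and 0 reads at 0.5 Gy and 11 and 2 reads at 0.2 Gy. In CPM, both its 6 h libraries were above the 6 libraries of 0 and 1 h, as for 3.88% of all genes. Up to 3 reads cannot be told from 0 by counting error alone, and *Ifnb1* also had 4 and 5 reads at 0 and 1 h of the 0.2 Gy series. No interferon gene passed 56 reads in any of the 5 libraries.

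The p53 family targets had a median near 0, whose sign depended on the fit. All 45 listed genes passed the filter, their median log2 fold change was 0.07 with dose as a block and -0.03 with generation as a block, which pairs the 6 h library of 0.5 Gy with replicate 2 of 4 h. With dose as a block none had an unadjusted p under 0.05. Both 6 h libraries were above all 4 h libraries for 1 of them, *Bbc3*, against 9.07% of all genes, and below for 5, *Btg2*, *Xpc*, *Sesn1*, *Rrm2b* and *Cdip1*, against 8.39% of all genes. *Mdm2*, the ubiquitin ligase of p53, had 231.0 and 467.8 CPM at 4 h and 589 CPM at 6 h of 0.5 Gy, and 255 and 229.5 CPM at 0.2 Gy. *Cdkn1a*, which encodes the cell cycle inhibitor p21, had 45.1 and 92.6 CPM at 4 h and 63.1 CPM at 6 h of 0.5 Gy, and 33.5 and 22.7 CPM at 0.2 Gy. Within a generation, *Cdkn1a* was thus lower at 6 h at both doses, while *Mdm2* was higher at 0.5 Gy and lower at 0.2 Gy. *Bbc3*, which encodes the BH3-only protein PUMA, had 1.57 and 2.16 CPM at 4 h and 2.29 CPM at 6 h of 0.5 Gy, and 1.18 and 2.28 CPM at 0.2 Gy. *Pmaip1*, which encodes NOXA, had 11.6 and 45.4 CPM at 4 h and 20.9 CPM at 6 h of 0.5 Gy, and 21.9 and 10.4 CPM at 0.2 Gy. *Eda2r*, a death domain receptor gene, had 39.1 and 46.5 CPM at 4 h and 52.9 CPM at 6 h of 0.5 Gy, and 24.7 and 19.6 CPM at 0.2 Gy.

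The levels were also set against those of 0 and 1 h. All 3 libraries of 4 h were above the 6 libraries of 0 and 1 h for 20 of the 45 genes (44.4%, against 1.65% of all genes), and both 6 h libraries were above them for 27 (60%, against 3.88%). The 2 counts have 17 genes in common, against 149 of all 24401 genes. Among the 17 are *Mdm2*, *Cdkn1a*, *Ccng1*, *Eda2r*, *Phlda3*, *Sesn2* and *Trp53inp1*. The 3 genes that were above at 4 h only were *Sesn1*, *Cdip1* and *Fbxw7*, against 254 of all 24401 genes. The list was chosen with earlier results of these libraries known, and a smaller number of 6 h than of 4 h libraries makes the second count easier to reach. Summed over the 45 genes, the level was 2132 and 3047 CPM at 4 h and 2849 CPM at 6 h of 0.5 Gy, and 1882 and 1693 CPM at 0.2 Gy, against 1146 to 1245 CPM at 0 and 1 h. Within the second and the third generation the sum was lower at 6 h than at 4 h, while replicate 1 of 4 h, of the first generation, was below the 6 h library of 0.5 Gy.

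**Figure D3:**
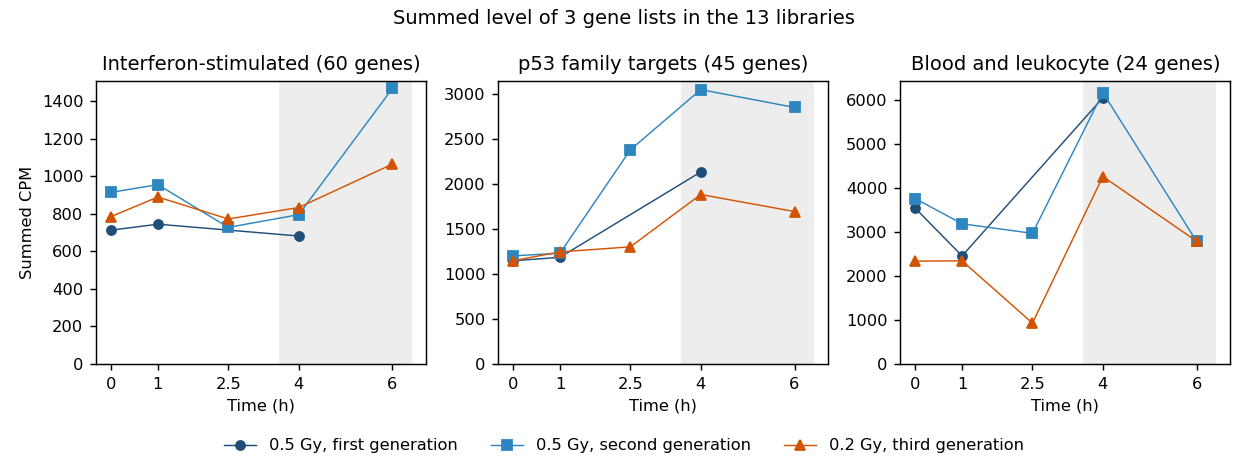
Summed CPM of the interferon-stimulated genes, the p53 family targets and the blood and leukocyte markers against time in h, 1 point per library, with the 4 to 6 h period shaded. The interferon sum is highest at 6 h, with 1468 CPM at 0.5 Gy and 1065 CPM at 0.2 Gy, the p53 sum is high at 4 h and at 6 h, and the blood sum is highest at 4 h.

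Genes of cell death, DNA repair and stress had medians close to that of all genes. The median log2 fold change was -0.06 for 43 BCL2 family and caspase genes, -0.03 for 62 DNA repair genes, 0.01 for 31 immediate early genes, 0.02 for 20 heat shock genes, 0.02 for 32 genes of the ER and integrated stress response and 0.13 for 30 NF-kB and chemokine genes. In these lists only *Mlkl*, the executor of necroptosis, and *Lig4*, the ligase of end joining, were higher with an unadjusted p under 0.05, which is no larger a share than the 1.57% of all genes. *Mlkl* had 5.18 and 5.81 CPM at 4 h and 10.7 CPM at 6 h of 0.5 Gy, and 6.55 and 10.4 CPM at 0.2 Gy (log2 fold change 0.84, SE 0.35). *Lig4* had 14.7 and 13.9 CPM at 4 h and 24.3 CPM at 6 h of 0.5 Gy, and 11.9 and 20.4 CPM at 0.2 Gy (log2 fold change 0.77, SE 0.27). Both had 6 h libraries above all of 4 h, and those of *Lig4* were above all 11 earlier libraries. *Casp1*, an inflammatory caspase, was among the 2 BCL2 and caspase genes that were lower at that p (1.65% of all genes), with at most 0.926 CPM at 4 h and at most 0.15 CPM at 6 h. *Cflar*, an inhibitor of caspase-8, had 103.9 and 124.8 CPM at 4 h and 127.9 CPM at 6 h of 0.5 Gy, and 109.2 and 292 CPM at 0.2 Gy. *Atf3*, a stress-induced transcription factor gene, had 2.07 and 2.76 CPM at 4 h and 0.376 CPM at 6 h of 0.5 Gy, but 0.778 and 0.88 CPM at 0.2 Gy (log2 fold change -1.36, SE 0.88). *Fos* had 73.7 and 43.1 CPM at 4 h and 37.8 CPM at 6 h of 0.5 Gy, and 61.4 and 42.3 CPM at 0.2 Gy (log2 fold change -0.59, SE 0.28).

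**Figure D4:**
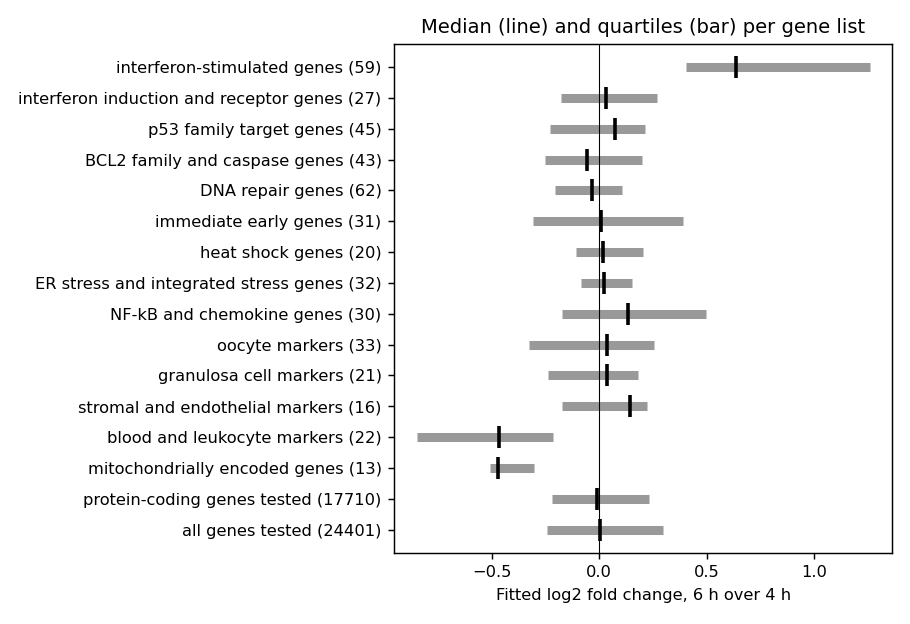
Median (black line) and quartiles (grey bar) of the fitted log2 fold change of 6 h over 4 h for each gene list, for protein-coding genes and for all genes tested, with the number of genes that passed the filter in brackets. The interferon-stimulated genes, with a median of 0.64, and the blood and mitochondrial lists, both at -0.47, are the 3 lists whose quartile bars lie clear of 0.

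The globin genes *Hba-a1* and *Hbb-bt* had the smallest unadjusted p in edgeR among the protein-coding genes that lay clear of 4 h on the lower side, while *Pla2g4b* and *H2-T22*, given below, had larger fold changes. *Hba-a1*, an alpha globin gene on chromosome 11, had 2076 and 1748 CPM at 4 h and 822 CPM at 6 h of 0.5 Gy, and 833 and 243 CPM at 0.2 Gy. Each 6 h value was below all 4 h values, and the 0.2 Gy libraries were lower than the 0.5 Gy ones at both times. Its log2 fold change was -1.45 (SE 0.21, unadjusted p = 0.000163, edgeR), with an adjusted p of 9.83e-05 from DESeq2. *Hbb-bt*, a beta globin gene on chromosome 7, had 323 and 281 CPM at 4 h and 122 CPM at 6 h of 0.5 Gy, and 241 and 109 CPM at 0.2 Gy (log2 fold change -1.24, SE 0.19, adjusted p = 0.00162 from DESeq2). *Hbb-bs* had 2574 and 2444 CPM at 4 h and 1059 CPM at 6 h of 0.5 Gy, and 1823 and 1094 CPM at 0.2 Gy. *Hba-a2* was lower at 6 h only at 0.5 Gy, with 917 and 1528 CPM at 4 h and 652 CPM at 6 h. At 0.2 Gy it did not follow, with 1232 and 1256 CPM. *Hba-a1* shares 75.8% of its sequences of 30 bases with other genes, most with *Hba-a2*, so that reads of the 2 genes may have been divided differently between libraries. *Alas2*, the enzyme of haem synthesis in red cell precursors, had 41.8 and 67.3 CPM at 4 h and 30.9 CPM at 6 h of 0.5 Gy, and 49.3 and 25.04 CPM at 0.2 Gy.

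Of the 24 blood and leukocyte markers, 22 passed the filter, with a median log2 fold change of -0.47. None was higher, against 1.57% of all genes, and 5 were lower, against 1.65%, with an unadjusted p under 0.05, the 4 named *Hba-a1*, *Hbb-bt*, *Hbb-bs* and *Alas2* and the granulocyte gene *Ngp*. The leukocyte markers varied, with log2 fold changes from -2.18 for *Ngp* to 1.15 for *Itgam*. Among them *Cd14* was also below all 4 h libraries in both 6 h libraries, with 4.99 and 3.65 CPM at 4 h and 2.89 CPM at 6 h of 0.5 Gy, and 4.15 and 2.28 CPM at 0.2 Gy, while *Ptprc*, *Csf1r* and *Laptm5* had log2 fold changes of -0.20, 0.00 and 0.09. The summed level of the list was 6048 and 6167 CPM at 4 h and 2785 CPM at 6 h of 0.5 Gy, and 4260 and 2789 CPM at 0.2 Gy. It was 930 to 3760 CPM in the 8 earlier libraries, so that the 4 h libraries, not those of 6 h, lay outside the range. Fewer cells of a type and less RNA per cell cannot be told apart in pooled cells, and the part of blood cells in the other differences was not tested. Mitochondrially encoded genes were lower at 0.5 Gy, with a median log2 difference of -0.76, but not at 0.2 Gy, where it was 0.00.

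The other genes that were lower at both doses were from several families. *H2-T22*, a non-classical class Ib gene of the major histocompatibility complex on chromosome 17, had 25.7 and 19.1 CPM at 4 h and 7.40 CPM at 6 h of 0.5 Gy, and 26.5 and 3.36 CPM at 0.2 Gy. Its log2 fold change was -2.16 (SE 0.42, adjusted p = 9.83e-05 from DESeq2), and 68.1% of its sequences of 30 bases occur in other genes, most in *H2-T10*. *Enpp2*, which encodes autotaxin, had 28.8 and 22.5 CPM at 4 h and 11.1 CPM at 6 h of 0.5 Gy, and 44.0 and 12.4 CPM at 0.2 Gy. Its log2 fold change was -1.47 (SE 0.30, adjusted p = 0.00602 from DESeq2), and its 4 h libraries were above the range of 0 and 1 h (11.8 to 22.1 CPM), and its 6 h libraries were within or just below that range. *Pla2g4b*, a phospholipase gene, had 1.88 and 4.84 CPM at 4 h and 0.15 CPM at 6 h of 0.5 Gy, and 4.96 and 0.32 CPM at 0.2 Gy, where the 6 h values are 4 and 8 reads. *Msln*, the mesothelial surface protein mesothelin, had 2.03 and 2.27 CPM at 4 h and 0.413 CPM at 6 h of 0.5 Gy, and 3.81 and 0.60 CPM at 0.2 Gy, and its 4 h libraries were also above all those of 0 and 1 h. *Pxt1* and *Syndig1* had at most 2.74 CPM at 4 h and at most 0.20 CPM at 6 h.

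**Figure D5:**
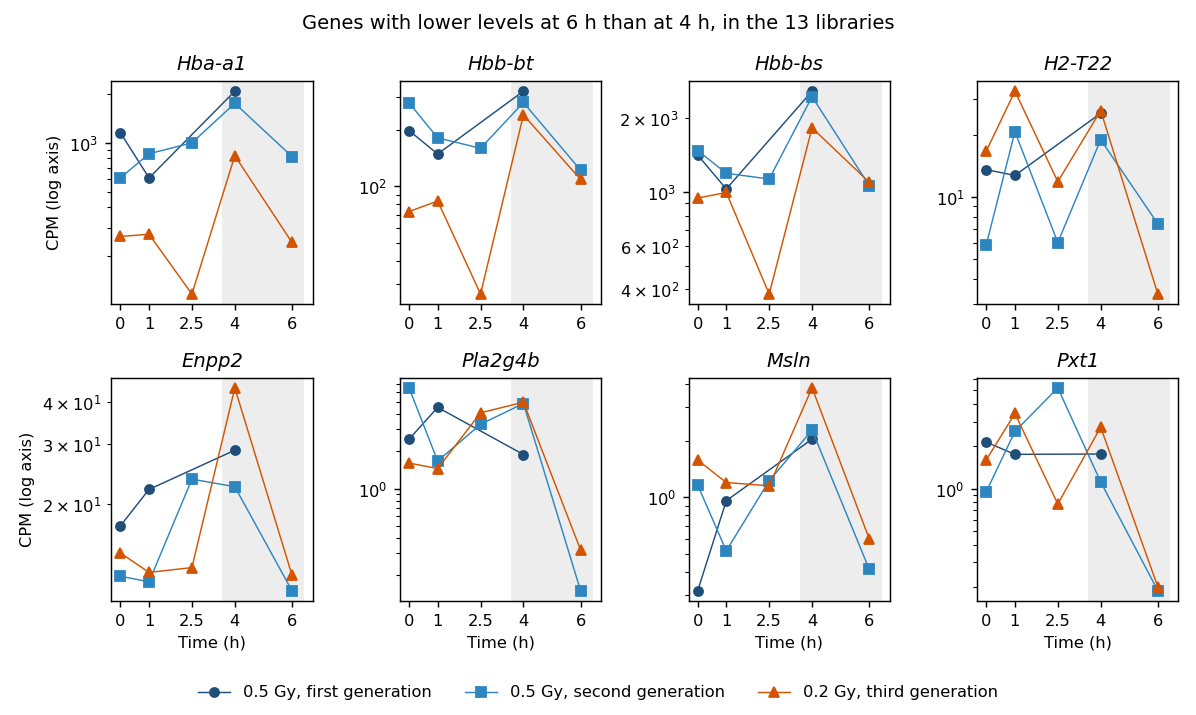
Level of 8 genes that were lower at 6 h than at 4 h in CPM on a log axis against time in h, 1 point per library, with the 4 to 6 h period shaded. Both 6 h points are below all 4 h points in each panel, and for Enpp2, Msln and Hbb-bs all 4 h points are above those of 0 and 1 h.

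The markers of the cells in the preparation had medians near 0. The median log2 fold change was 0.04 for 33 oocyte markers, 0.04 for 21 granulosa cell markers and 0.15 for 16 stromal and endothelial markers. Among oocyte markers 1 was higher with an unadjusted p under 0.05 (1.57% of all genes), *Gdf9*, a growth factor of the oocyte, with 379 and 500.1 CPM at 4 h, 615 CPM at 6 h of 0.5 Gy, and 404 and 555 CPM at 0.2 Gy. At that p 3 were lower (1.65% of all genes), *Oas1h*, the transcription factor gene *Figla*, with 176.8 and 129.3 CPM at 4 h and 97.4 CPM at 6 h of 0.5 Gy and 165.7 and 90.1 CPM at 0.2 Gy, and *Dppa3*, with 3041 and 2254 CPM at 4 h, 1778 CPM at 6 h of 0.5 Gy, and 2915 and 2048 CPM at 0.2 Gy. Both 6 h libraries were below all those of 0 and 1 h for 5 oocyte markers, *Dazl*, *Dppa3*, *Figla*, *Lhx8* and *Oas1h*, against 2.93% of all genes. *Kitl*, the ligand by which granulosa cells signal to oocytes, had 231.1 and 201.2 CPM at 4 h and 278 CPM at 6 h of 0.5 Gy, but 225 and 81.3 CPM at 0.2 Gy.

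Over all genes, both 6 h libraries were above all 4 h libraries with a difference of at least 1 on the log2 scale at each dose for 296 genes (1.21%), of which 130 were protein-coding, and below them for 224 (0.918%), of which 116 were protein-coding. Most of these had few reads, with a median of the highest level of 1.52 CPM on the higher and 1.67 CPM on the lower side. Of the 296, 5 were in the interferon list, and 72 were above all 11 earlier libraries (a state that 1.18% of all genes shared, whatever the size of the difference). Of the 224, 50 were below all 11 earlier ones (1.02% of all genes, counted likewise), and for 13 all 4 h libraries had been above those of 0 and 1 h, against 1.65% of all genes, and being chosen as lower at 6 h than at 4 h favours such genes. *Serpina3i* is such a gene, named after its values were seen, with 2.42 and 4.55 CPM at 4 h and 1.16 CPM at 6 h of 0.5 Gy, 2.26 and 0.60 CPM at 0.2 Gy, and at most 0.798 CPM at 0 and 1 h. The 10 protein-coding genes with the smallest p on the higher side were *Tgtp1*, *Iigp1*, *Tgtp2*, *Ifit3b*, *Usp18*, *Igtp*, *Ifit3*, *H2-Oa*, *Gm42791* and *Gm10309*, of which *Ifit3b*, *Usp18*, *Igtp* and *Ifit3* are in the interferon list. Of these, *Ifit3*, *Tgtp2*, *H2-Oa*, *Gm42791* and *Gm10309* had at most 10 reads in each 4 h library. The filter on low counts may have kept them through the 6 h libraries alone, so their small p is no separate evidence. *H2-Oa*, which encodes a chain of the class II modulator H2-O, had 0.115 and 0.224 CPM at 4 h and 1.502 CPM at 6 h of 0.5 Gy, and 0.037 and 0.44 CPM at 0.2 Gy. On the lower side *Gm20547* and *Gm44502* share 97.1% and 98.7% of their sequences of 30 bases with *Cfb*, *Cpt1b* and other genes, and their levels are uncertain.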

How the data were processed

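RNA of oocytes from irradiated mouse ovaries was sequenced as reads of 30 bp, which the labels call single-end in one place and paired-end in another. The authors quantified transcripts (mouse, GRCm38) with salmon and deposited estimated counts per transcript and library, and the TPM in the same files was also computed by the authors with salmon. Neither was normalized between libraries. The deposited normalized values and the authors' own comparisons were not used here.

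Estimated counts were summed per gene of the GENCODE annotation of GRCm38 and rounded, giving 49585 genes. 402 transcripts without a gene there, with at most 0.495% of the reads of a library, were left out. Totals ranged from 25263647 to 28169108 in the 5 libraries compared. After the filterByExpr step and TMM normalization, genes were tested with edgeR 4.0.16 (quasi-likelihood, dose and time as terms) in R 4.3.3, with Benjamini-Hochberg adjustment. DESeq2 1.42.0 (Wald test, beta prior, the same terms) was an alternative, since the submitters' processing notes name DESeq2 1.24.0. Log2 CPM used a prior count of 2, and log2 TPM a pseudocount of 0.1. Standard errors were derived from the F statistic. The steps were tested on simulated counts, where false calls were above the nominal rate for both tools, more so with DESeq2 than with edgeR, and most so for the difference between doses. Python 3.11.15 with pandas 2.3.3 and numpy 2.4.6 was used for the lists and promoters.

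The members and gene lists were chosen with earlier results of these data known. Named genes were all genes called by edgeR, the 10 protein-coding genes on either side with the smallest p whose 6 h libraries lay beyond all 4 h libraries by at least 1 (log2) at each dose, *Ifit3*, *Isg15* and *Oasl2*, and the members with the largest differences, up to 6 per list and 15 for the interferon and p53 lists. Genes called by DESeq2 and further list members outside this rule were named after their values were seen. The generation pairs the second-generation libraries of 4 h and 6 h of 0.5 Gy and those of 0.2 Gy, as the labels state, and was used as a block in an alternative. A supplementary list of mapped reads has the first and second generation at 4 h the other way round from the totals in the files. The numbers of detected transcripts in that list follow the labels, which were kept. Other alternatives were another normalization, no filter, no block, all 13 libraries, other scales and thresholds, and leaving out each library.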

Additional observations from a re-analysis of the deposited data

Results flagged for a closer look

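The change from 4 h to 6 h differed between the doses, by edgeR's test of the interaction, for 11 of 27324 genes (0.0403%). Of these, 10 are annotated as processed pseudogenes and *Rps2-ps10* as a transcribed processed pseudogene. On the log2 scale, the difference (0.2 Gy minus 0.5 Gy) was 11.88 for *Rps24-ps3*, 22.25 for *Gm6768*, 7.08 for *Rps2-ps10*, 7.53 for *Gm9118*, 6.77 for *Gm8399* and 12.18 for *Gm9347*. It was -7.48 for *Gm10163*, -11.05 for *Gm8226*, -13.24 for *Gm9800*, -5.06 for *Gm10335* and -7.53 for *Gm3226*. Where a library held 0 reads, as for *Gm6768*, *Gm9800* and *Gm9347*, the fitted value depends on the prior count and is no measure of size. *Gm8226* shows the kind of pattern, with 9917 and 5400 reads at 4 h, 5052 reads at 6 h of 0.5 Gy, 3911 reads at 4 h and 1 read at 6 h of 0.2 Gy. None of the 11 is in a gene list used here, and on simulated counts this test made false calls above its nominal rate. The division of reads between such copies and their parent genes was not tested.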

How the results depend on the processing

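The count of called genes, 0 with edgeR, was 26 with DESeq2 and 1 (*Gm10163*) with all 13 libraries, and 0 with the RLE normalization, no filter or no block. With the generation in place of dose as a replicate block, which pairs the libraries of 4 h and 6 h of one generation, 0 genes were called, with a smallest adjusted p of 0.0688. Leaving out 1 library gave 0 to 58 called genes, with 58 without the 0.5 Gy library of 6 h, 17 without the 0.2 Gy library of 4 h and 16 without that of 6 h. The last 2 fits rest on the 0.5 Gy libraries alone and call *Ifit3* and *Usp18*. The 58 calls rest on 1 library of 0.2 Gy per time point, with the spread taken from the 0.5 Gy replicates of 4 h, and hold no gene of the interferon list. The 11 calls of the dose difference became 1 with all 13 libraries, 28 with RLE and 0 with no filter. Its fits without a replicate of 4 h were not run, since they leave no residual degrees of freedom. The counts of genes clear of all 4 h libraries, 296 higher and 224 lower, were 193 and 148 on the TPM scale, 929 and 620 with a threshold of 0.5 and 658 and 382 with no filter, and ranged from 425 to 1627 and from 293 to 1509 without 1 library. The median of the interferon-stimulated genes, 0.64, was 0.41 with DESeq2, 0.66 with the replicate block, 0.61 with no block and 0.59 with all 13 libraries, and 0.41 to 0.79 without 1 library. Their count at an unadjusted p under 0.05 ranged from 4 to 23 without 1 library, in fits where 3.26% to 5.72% of all genes passed that p in either direction. The cause of these differences was not tested.

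Of 52 genes followed under 11 alternatives, 43 kept their direction in all. Reversed values came without the 0.5 Gy library of 6 h for *Oasl2* (-0.15), *Cmpk2* (-0.15), *Oas3* (-0.15), *Mdm2* (-0.15), *Eda2r* (-0.33), *Trp73* (-0.10) and *Lcn2* (1.09). Without the 0.2 Gy library of 4 h or of 6 h, *Ccng1* was -0.04 in both and *Phlda3* was 0.14 in both, and *Phlda3* was 0.13 without 0.5 Gy 4 h replicate 2. Without 0.5 Gy 4 h replicate 1, *Eda2r* was -0.07 and *Trp73* was -0.02. With the replicate block, *Lcn2* was 0.53, *Eda2r* -0.081 and *Trp73* -0.033. With no block, *Ccng1* was -0.11 and *Eda2r* -0.020, and with all 13 libraries *Eda2r* was -0.027. Over the fits without 1 library, values ranged from -0.15 to 2.22 for *Oasl2*, -0.15 to 1.00 for *Cmpk2*, -0.15 to 0.99 for *Oas3*, -0.038 to 0.38 for *Ccng1*, -1.50 to 1.09 for *Lcn2*, -0.51 to 0.14 for *Phlda3*, -0.33 to 0.30 for *Eda2r*, -0.15 to 0.75 for *Mdm2* and -0.10 to 1.01 for *Trp73*.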
